A study of Macaca mulatta with 2 samples.

Results

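HBA and HBB, the alpha and beta globin genes, were followed in circulating CD4+CD8+ double positive (DP) T cells of the rhesus monkey. They are 2 of the 35432 genes in the feature list, HBA as ENSMMUG00000029310 and HBB as ENSMMUG00000041831. Both were selected on measured values, because HBA differed between cell states of this library in earlier work on the same counts. Their levels across those states are therefore given as a description with no test. The study used 1 untreated rhesus monkey, 6 years old, whose blood mononuclear cells were separated with magnetic beads, first for CD4 and then for CD8. A 5′ gene expression library and a library of CD4 and CD8α antibody tags were made from these cells, and all 7923 barcodes carried UMIs of both libraries. With 1 animal and 1 library of each kind there was no replicate. Every interval below is a 95% interval that covers counting error only.

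Haemoglobin is the oxygen carrier of red blood cells and is built from alpha and beta chains, which are made in nearly equal amounts during red cell development. The alpha chains come from 1 gene cluster and the beta chains from another, on a different chromosome. Each cluster also holds embryonic or minor members, such as HBZ, HBM and HBQ1 in the alpha cluster and HBE1 in the beta cluster. Globin RNA of red cells and reticulocytes is common in preparations of blood cells.

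In Mmul_10, the build to which the reads were aligned, RefSeq places HBA on the plus strand at chr20:190724-191412, with 3 coding exons. A second alpha gene, HBA1, lies on the same strand at chr20:195741-196739, leaving 4328 bases between the genes. HBA aligned to HBA1 over its 689 bases with 688 identical, and the longest identical run was 440 bases. HBM lies at chr20:184496-185279 and HBQ1 at chr20:200310-201049. HBB lies at chr14:63067679-63069138 on the plus strand, also with 3 coding exons. The first 60 coding bases of HBA are shown with the stretch of each other gene that matched them best. They show how alike these genes are over that stretch only. Each line gives 60 bases, 5′ to 3′, from RefSeq on Mmul_10, and capitals mark the bases that differ from HBA in an alignment without gaps.
HBA, chr20:190724-190783: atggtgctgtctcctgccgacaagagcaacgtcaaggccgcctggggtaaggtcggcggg
HBA1, chr20:195942-196001: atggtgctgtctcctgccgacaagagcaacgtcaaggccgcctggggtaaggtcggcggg
HBQ1, chr20:200356-200415: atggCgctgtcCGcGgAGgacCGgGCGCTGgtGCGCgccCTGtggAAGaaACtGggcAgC
HBB, chr14:63067691-63067750: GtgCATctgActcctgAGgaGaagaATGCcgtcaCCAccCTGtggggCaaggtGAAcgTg
The HBA1 stretch did not differ from HBA, whereas HBQ1 differed at 29 of 60 bases and HBB at 23 of 60. The RefSeq models differ more, with 528 coding bases in 4 exons for HBA1 and 426 in 3 for HBA, and 422 of 531 aligned coding positions were identical (79.5%). The coding start of HBA1 lies at position 195837, upstream of the stretch shown. Reads from within any identical stretch, the longest of which was 440 bases, could come from either gene. HBA below means the feature of that name in the deposited table. The feature ENSMMUG00000019566, which the gene name table calls HBA1, had 0 UMIs in every barcode.

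The limits of these features are not given in the files. The feature list follows chromosome order for 15720 of 15906 neighbouring pairs (98.8%). In it HBA stands before HBM, although the RefSeq HBA starts 6228 bases after the start of HBM. The deposited HBA feature may therefore begin farther upstream than the RefSeq gene. The identifier of the HBB feature carries the symbol HBE1 in the gene name table, and the list has no other beta cluster gene by name, so HBB below likewise means the deposited feature.

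The filters of the study left 7601 cells and 14459 genes. The 1 of these cells with over 1000 HBA UMIs was dropped, which left 7600 cells with a median of 3636 UMIs (quartiles 2965 and 4705). CD3E, a chain of the T cell receptor complex, had a UMI in 96.2% of them. The median tag counts were 381 UMIs for CD4 and 335 UMIs for CD8. Of the kept cells, 86 carried 3 or more UMIs from B cell genes but lacked CD3D, CD3E and CD3G, with lower median tag counts of 90 UMIs for CD4 and 139.5 UMIs for CD8.

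HBA and HBB were both abundant in 4 globin-rich barcodes, and nearly balanced in their sum, whereas HBB was scarce in all other cells. The 4 barcodes held 3270, 2434, 991 and 339 HBA UMIs. Their HBB counts in the same order were 2649, 2122, 1806 and 72 UMIs. The next highest barcode held 11 HBA UMIs, so no barcode lay between 11 and 339. Both globins made up 65.9% to 92.2% of all UMIs in the 4 barcodes. The filters removed 3 of them, with 172, 105 and 106 detected genes, and kept the first, with 405 genes, which is the cell dropped here. Summed over the 4, HBA had 7034 UMIs and HBB 6649, so that HBB was 48.6% of both (47.8 to 49.4). This interval does not cover the spread between the barcodes, which ran from 991 HBA with 1806 HBB UMIs to 339 with 72.

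In the 7600 kept cells, HBA had 1319 UMIs in 900 cells (11.8%, 11.1 to 12.6), whereas HBB had 13 UMIs in 12 cells (0.158%, 0.0816 to 0.276). HBB was thus 0.976% of both globins (0.521 to 1.66), and its interval did not overlap that of the 4 globin-rich barcodes. A 5′ library counts 1 UMI per captured transcript, so these sums were not scaled to gene length. HBM, a minor alpha-like globin, had 45 UMIs in the 4 barcodes and 0 in the kept cells. A count of 0 in 7600 cells allows a share of up to 0.0395%, a limit on cells in which an HBM UMI was seen and not on cells that hold the transcript. HBQ1, the theta globin of the alpha cluster, had 2 UMIs in the 4 barcodes and 184 in 154 kept cells. These are raw sums over 4 barcodes and 7600 cells, so by themselves they do not say where the HBQ1 level was higher. The 2 UMIs fell 1 each in barcodes of 7274 and 4987 UMIs in all, whereas HBQ1 had 5.94 CPM (5.11 to 6.86) in kept cells. AHSP, the chaperone of free alpha globin, had 35 UMIs in the 4 barcodes, and ALAS2, the erythroid enzyme of haem synthesis, had 67. In the kept cells AHSP had 0 UMIs and ALAS2 had 1.

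**Figure D1:**
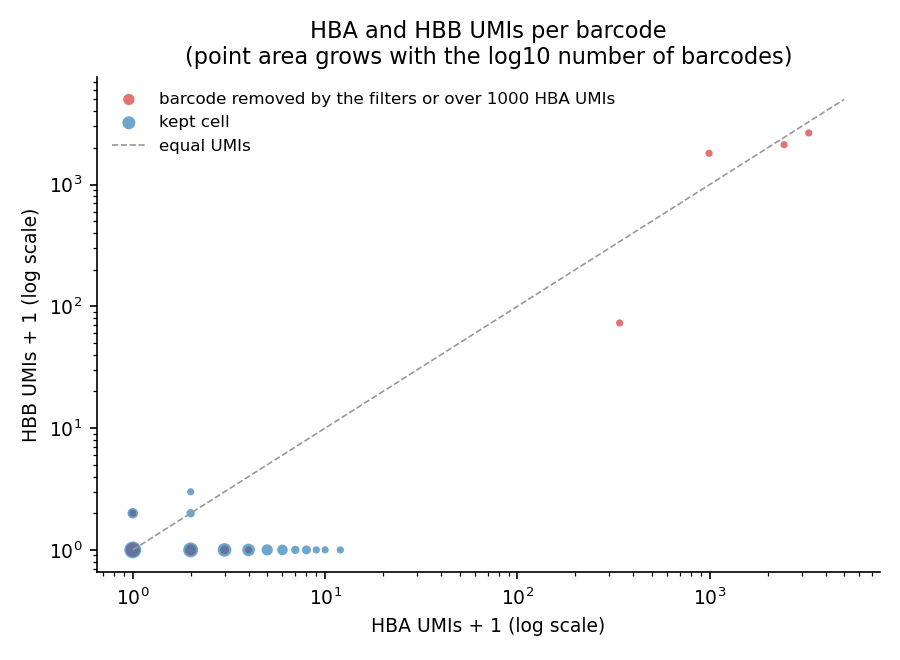
HBA UMIs (x axis, plus 1, log scale) against HBB UMIs (y axis, plus 1, log scale) per barcode, blue for kept cells and red for the others. The 4 globin-rich barcodes lie toward the upper right, near the line of equal UMIs except for the one with 339 HBA and 72 HBB UMIs, while kept cells reach 11 HBA UMIs with 0 HBB UMIs.

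Most HBA-positive cells held a single UMI. Of the 900, 647 had 1 HBA UMI, 161 had 2, 57 had 3, 17 had 4, 10 had 5 and 8 had 6 or more. The variance of HBA UMIs over kept cells was 1.96 times their mean. No kept cell had more than 2 HBB UMIs. HBA and HBB were found together in 3 cells. These were 25% of the 12 cells with HBB (5.49 to 57.2), against 12.7% with HBA among cells without HBB at the same depth, a difference not detectable with so few cells.

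To compare cell states at equal depth, each cell was thinned by 1 random draw to 2000 UMIs, which kept 7105 cells and left out 495 shallower ones. At this depth HBA was found in 531 cells (7.47%, 6.87 to 8.11) and HBB in 4 (0.0563%, 0.0153 to 0.144). Cells were then gated on raw UMIs of 5 genes. GZMB, the cytotoxic protease granzyme B, was gated at 3 or more UMIs. The other 4 were gated at 1 or more: CX3CR1, the fractalkine receptor of cytotoxic effector cells, MKI67, the proliferation antigen Ki-67, EOMES, a T-box factor of effector and memory cells, and CCR7, the lymph node homing receptor of naive and central memory cells.

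HBA was concentrated in the GZMB gate. There it had 599 UMIs in 2688 cells, or 111 UMIs per 1000000 UMIs (CPM, interval 103 to 121). The 4417 cells below the gate had 66 UMIs, or 7.47 CPM (5.78 to 9.51). The level was 14.9-fold higher in the gate, a log2 ratio of 3.90 (3.53 to 4.29). The share of cells with HBA was 17.4% in the gate (16.0 to 18.9) and 1.40% below it (1.08 to 1.80). On the scale of log2(CPM + 10), only 5 of 7779 genes had a larger ratio than HBA, which was chosen for such differences. With a gate at 10 or more GZMB UMIs the log2 ratio was 2.75, and over all barcodes below the limit of 1000 HBA UMIs, where 1 barcode brings 991 HBA UMIs below the gate, it was 0.46. For background, 2.94% of those genes were at least 2-fold higher in the gate and 1.88% at least 2-fold lower. The GZMB gate was the shallower group, with a raw median of 3295 UMIs against 3924.

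HBA was also higher in the CX3CR1 gate, at 123 CPM (109 to 138, 301 UMIs in 1224 cells) against 30.9 CPM (27.8 to 34.3). The log2 ratio was 1.99 (1.77 to 2.21). On the scale of log2(CPM + 10) it was 1.70, and 1 of 6733 genes had a larger ratio. On that scale 1.46% of all genes were at least 2-fold higher. In the MKI67 gate HBA stood at 119 CPM (88.0 to 158, 48 UMIs in 201 cells) against 44.7 CPM (41.2 to 48.4), a log2 ratio of 1.42 (0.96 to 1.84). HBA was lower in the EOMES gate, at 15.9 CPM (7.94 to 28.4, 11 UMIs in 346 cells) against 48.4 CPM (44.7 to 52.2), a log2 ratio of -1.61 (-2.62 to -0.76). On the scale of log2(CPM + 10) HBA was at -1.17, and 0.697% of 5307 genes were at least 2-fold lower in that gate. In the CCR7 gate HBA stood at 4 CPM (2.33 to 6.404, 17 UMIs in 2125 cells) against 65.1 CPM (60.1 to 70.3). The log2 ratio was -4.02 (-4.81 to -3.33). On the scale of log2(CPM + 10) it was -2.42, and 6 of 7732 genes had a lower ratio. On that scale 2.12% were at least 2-fold lower. The sizes of the lower levels moved with the draw, to -2.90 for CCR7 without thinning, and to -0.91 for EOMES at 3000 UMIs per cell. Without cells of 3 or more HBA UMIs the MKI67 ratio was 0.82.

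HBB was not detectably higher in the GZMB gate. Without thinning, HBB had 3 UMIs in the 2819 cells of the GZMB gate, or 0.276 CPM (0.0569 to 0.807), and 10 in the other 4781, or 0.497 CPM (0.238 to 0.913). These intervals overlapped. After thinning, HBB had 0 UMIs in 2688 gated cells, which allows a share of up to 0.112%, and 4 in the rest. The MKI67 gate had 0 HBB UMIs in 207 cells (up to 1.45%) and the EOMES gate 0 in 363 (up to 0.826%). No ratio was computed for HBB from these counts.

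Because the gates share cells, each cell was also placed in 1 of 7 gates that share none. HBA was highest in cells with GZMB and CX3CR1, at 121 CPM (107 to 137, 1075 cells). Cycling cells with MKI67 followed at 119 CPM (88.0 to 158, 201 cells), and cells with GZMB without CX3CR1 at 97.9 CPM (87.0 to 110, 1497 cells). The intervals of these 3 overlapped. Cells with CX3CR1 below the GZMB gate had 31.25 CPM (10.1 to 72.9, 5 UMIs in 80 cells), which lay under all 3. Cells with none of the 5 genes had 10.6 CPM (7.81 to 14.1, 2210 cells). Cells with EOMES below the GZMB gate had 4.33 CPM (0.524 to 15.6, 2 UMIs in 231 cells). CCR7 cells without the other genes were lowest, at 2.48 CPM (1.14 to 4.72, 9 UMIs in 1811 cells). Among the lower 4 gates, each neighbour in this order overlapped the next, while cells with none of the 5 genes lay above the CCR7 cells.

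**Figure D2:**
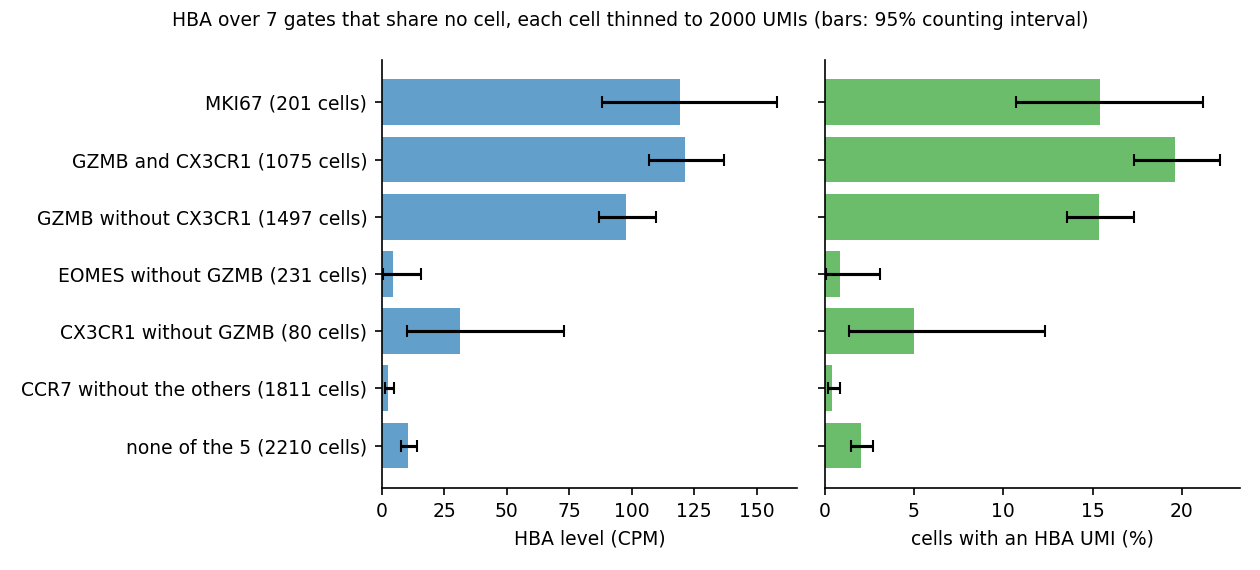
HBA level (left, CPM) and share of cells with an HBA UMI (right, %) in 7 gates that share no cell, each cell thinned to 2000 UMIs. Bars show the 95% counting interval. The 3 gates with MKI67 or GZMB stand at 97.9 to 121 CPM, and the other 4 at 2.48 to 31.25.

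Within the GZMB gate HBA levels still differed with each of the other 4 genes. This comparison was added after the values of the gates were seen. HBA was 130 CPM (116 to 146) with CX3CR1 and 97.7 CPM (87.0 to 109) without it, so that the log2 ratio was 0.41 (0.18 to 0.65), below that over all cells. With MKI67 it was 194 CPM (141 to 260, 116 cells) against 108 CPM (98.9 to 117), a log2 ratio of 0.85 (0.38 to 1.29). The shares of cells with HBA overlapped, however, at 24.1% (16.7 to 33.0) with MKI67 and 17.1% (15.7 to 18.7) without. With EOMES the HBA level was 35.7 CPM (15.4 to 70.4, 8 UMIs in 112 cells) against 115 CPM (106 to 124). With CCR7 it was 20.8 CPM (8.38 to 42.9, 7 UMIs in 168 cells) against 117 CPM (108 to 127). The lower levels with EOMES and with CCR7 were therefore also found among cells that carried GZMB. Among cells with no GZMB UMI, MKI67-positive cells had 1 HBA UMI in 72 cells, or 6.94 CPM (0.176 to 38.7), and MKI67-negative cells 5.78 CPM (4.21 to 7.73).

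HBA was higher in each higher class of GZMB UMIs. Cells with no GZMB UMI had 5.80 CPM of HBA (4.24 to 7.73, 3967 cells), and those with 1 UMI had 17.2 CPM (8.24 to 31.6, 291 cells). Cells with 3 to 5 GZMB UMIs had 48.0 CPM (34.7 to 64.6), those with 10 to 14 had 105 CPM (88.4 to 124), and those with 20 to 29 had 161 CPM (135 to 192). The highest class, with 30 or more GZMB UMIs, had 188 CPM (142 to 244, 149 cells), and 28.2% of its cells held HBA (21.1 to 36.1). The 9 classes stood in the same order for HBA as for GZMB, although neighbouring intervals overlapped in most pairs. Raw depth also differed, with a median of 4484 UMIs in the highest class and 3130 to 4018 in the others. HBQ1 stood at 1.89 CPM in cells with no GZMB UMI and at 16.8 CPM in the highest class.

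**Figure D3:**
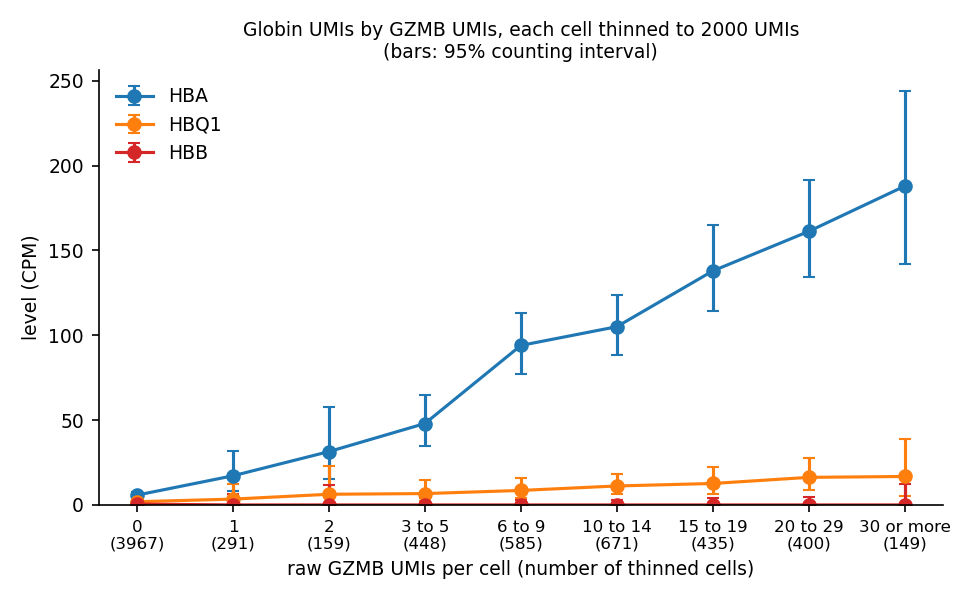
HBA, HBQ1 and HBB levels (y axis, CPM) in 9 classes of raw GZMB UMIs per cell (x axis, with the number of cells), each cell thinned to 2000 UMIs. Bars show the 95% counting interval. HBA goes from 5.80 to 188 CPM, HBQ1 from 1.89 to 16.8, and HBB stays at or near 0.

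The difference was present at every depth. In 8 bins of total UMIs, cells of the GZMB gate had 0.232 raw HBA UMIs per cell in the shallowest bin (0.185 to 0.286) and 0.647 in the seventh (0.524 to 0.789). Cells below the gate had 0.0121 (0.00487 to 0.0250) and 0.0238 (0.0143 to 0.0371) in the same bins. The intervals of the 2 groups overlapped in none of the 8 bins. Below the gate, the deepest bin stood apart at 0.0938 raw HBA UMIs per cell (0.0710 to 0.121). Per UMI it did not, at 11.7 CPM (8.86 to 15.2) against 11.2 CPM (6.28 to 18.5) in the third bin. In the gate, the deepest bin was lowest per UMI, at 72.7 CPM (63.0 to 83.4). The next lowest there, the fourth, had 102 CPM (86.0 to 119).

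**Figure D4:**
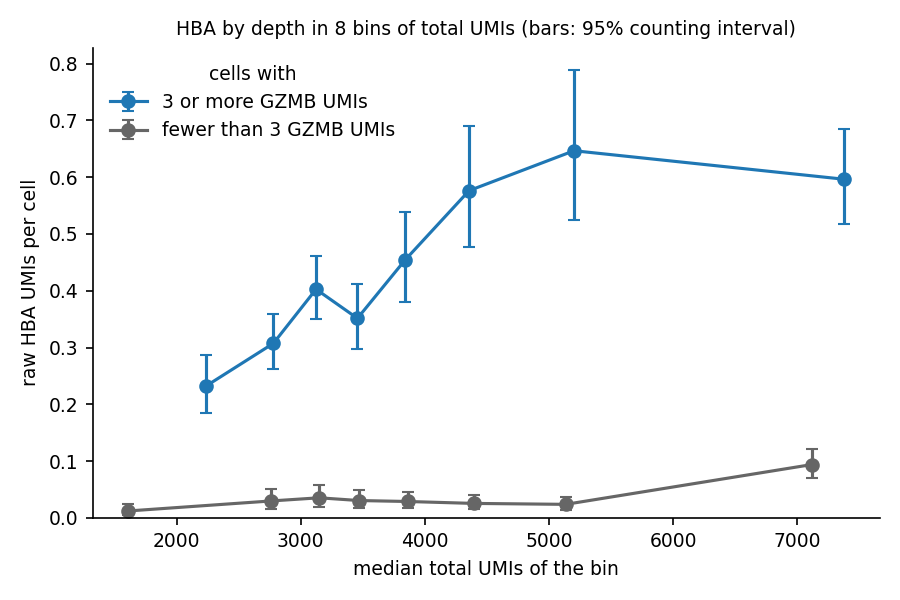
Raw HBA UMIs per cell (y axis) against the median total UMIs of 8 depth bins (x axis) for cells with 3 or more GZMB UMIs (blue) and with fewer (grey). Bars show the 95% counting interval. The blue points run from 0.232 to 0.647 and lie above the grey ones in all 8 bins.

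The 86 cells with B cell genes and no CD3 did not have the lowest level. Of these, 84 were below the GZMB gate, and they had 23 HBA UMIs in 12 cells without thinning, or 61.4 CPM (38.9 to 92.1), at a median of 4096 UMIs. At equal depth 7.59% of the B gene cells held HBA (2.84 to 15.8, 6 of 79). CCR7 cells without the other genes stood at 0.442% (0.191 to 0.869), below the interval of the B gene cells. All cells below the GZMB gate stood at 1.40% (1.08 to 1.80). The 77 B gene cells among them stood above that interval, at 7.79% (2.91 to 16.2). Why the shares differed was not tested. HBB had 1 UMI in the B gene cells.

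The other genes of the alpha cluster were described across the same GZMB gate. HBA was chosen for its differences between cell states, so a ratio larger than that of its neighbours is no test. HBQ1 had 11.2 CPM in the gate (8.52 to 14.4, 60 UMIs) and 2.15 CPM below it (1.29 to 3.36, 19 UMIs), a log2 ratio of 2.38 (1.61 to 3.20). Its log2 ratio was 1.63 (0.93 to 2.31) for CX3CR1, 2.76 (1.78 to 3.63) for MKI67 and -1.92 (-3.19 to -0.86) for CCR7, in the directions of HBA. HBQ1 and HBA also met in the same cells. HBA was found in 42.9% of the 154 cells with HBQ1 (34.9 to 51.1), against 12.1% of cells without it at the same depth. Within the GZMB gate the shares were 51.9% (42.0 to 61.6) and 28.96%.

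Of the genes that flank the cluster, 5 had enough UMIs for a narrow interval, and their ratios were smaller than that of HBA. NPRL3, an inhibitor of mTORC1 signalling whose introns are known to hold the enhancers of the alpha globin genes, had a log2 ratio of -0.14 (-0.53 to 0.25) across the GZMB gate. LUC7L, a splicing factor gene on the far side, had 0.29 (-0.09 to 0.67). Farther out, MPG, a DNA repair glycosylase, had 0.42 (0.21 to 0.63), POLR3K, a subunit of RNA polymerase III, had 0.61 (0.32 to 0.90), and FAM234A had 0.64 (0.39 to 0.89). These 5 intervals lay below that of HBA, from 3.53 to 4.29, which the choice of HBA favoured. RHBDF1, with 5 UMIs in all, gave an interval from -2.55 to 7.60 that spanned the HBA interval. At the same depth, HBA was found in 12.7% of cells with NPRL3 (9.96 to 16.0) and 12.4% of cells without it. The shares were 14.5% (11.6 to 17.8) and 12.4% for LUC7L, and 16.1% (14.2 to 18.1) and 11.3% for MPG. They were 17.1% (14.5 to 19.9) and 11.7% for POLR3K, and 16.2% (14.1 to 18.6) and 11.7% for FAM234A. Within the GZMB gate they were 32.05% (28.39 to 35.87) and 28.09% for MPG, and 32.1% (27.2 to 37.3) and 28.3% for POLR3K. FAM234A had 31.4% (27.3 to 35.8) and 27.99% there, LUC7L 35.5% (28.88 to 42.56) and 29.01%, and NPRL3 28.4% (22.01 to 35.54) and 28.94%. Of these 5 genes, only MPG had an interval in the gate that lay above the share without the gene.

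Of a list of 22 red cell genes, 19 were in the feature list, of which 10 had UMIs in the kept cells and 9 had 0. Those at 0 included AHSP, SLC4A1, the anion exchanger of the red cell membrane, and GATA1, the master transcription factor of the lineage. The highest were SLC25A37, a mitochondrial iron importer, with 414 UMIs, DMTN, a membrane skeleton protein, with 218 and BPGM, which makes the oxygen affinity regulator of haemoglobin, with 200. Across the GZMB gate, 2.94% of all genes were at least 2-fold higher and 1.88% lower on the scale of log2(CPM + 10). Of 3 red cell genes tested there, 0 passed 2-fold, too few genes to differ from these shares. Their median on this scale was 0.23, against 0.14 for all genes. SLC25A37 was at 15.3 against 11.5 CPM, DMTN at 6.88 against 7.36 and BPGM at 10.0 against 3.51. Among the 900 cells with HBA, ALAS2 was found in 0 and CA1, a red cell carbonic anhydrase, in 1. Summed over the red cell markers apart from both globins, without thinning, the level over the 7 gates lay between 10.8 and 21.9 CPM. It was 20.6 CPM in cells with HBA and 12.4 CPM in those without, and 414 of these UMIs were of SLC25A37.

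Of 10 other globin genes, 5 were in the feature list, and HBM, CYGB and NGB of these were at 0. MB, the myoglobin of muscle, had 107 UMIs, at 3.53 CPM in the GZMB gate and 1.70 CPM below it. All 12 genes of haem synthesis and breakdown were detected, and 8 were tested across the GZMB gate. BLVRB, a biliverdin reductase, was higher by 1.11 on the scale of log2(CPM + 10), at 53.8 against 19.5 CPM. BLVRA, the other biliverdin reductase, was lower at -1.67 (4.09 against 34.9 CPM). HMOX1, the inducible haem oxygenase, did not pass 2-fold on this scale at 0.96 (13.6 against 2.15 CPM). The 10 CPM added to both sides shrinks the ratios of genes at such low levels. The median of the 8 was 0.35. Of 10 regulators of globin genes, 9 were in the list and 4 were tested. Against 2.94% of all genes higher and 1.88% lower, 0 of these 4 passed 2-fold on the same scale, too few genes to differ. They were led by ZBTB7A, a repressor of fetal globin, at 0.45 (32.7 against 21.3 CPM) and IKZF1, a lymphoid zinc finger factor, at 0.41 (259 against 193 CPM). BCL11A, another such repressor, had 51 UMIs in 39 cells.

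Markers of other blood cells gave the following levels over the 7 gates. Sums over markers are from the full counts without thinning, whereas levels of single genes are at equal depth. The 7 platelet markers summed to between 1.12 and 4.06 CPM, with TUBB1 and GP1BB at 0. The 8 monocyte markers summed to between 0.812 and 48.2 CPM, and stood at 33.6 CPM in cells with HBA and 15.8 CPM in those without. LYZ led this sum, in 43 cells of which 7 held HBA. At equal depth LYZ was at 18.7 CPM with HBA and 5.95 CPM without. CD14, at 1.70 and 1.93 CPM, and CSF1R, at 0 and 0.0803, went the other way. The 6 B cell markers summed to between 42.2 and 286 CPM, with 241 CPM in cells with HBA and 154 CPM in those without. At equal depth the highest of them differed less. CD79A was at 39.1 CPM with HBA and 42.3 CPM without, CD79B at 36.8 and 36.2, and MS4A1 at 44.8 and 31.3. Neutrophil markers, with LTF at 0, reached at most 1.79 CPM. CLEC4C, the marker of plasmacytoid dendritic cells in the feature list, was at 0. Of the NK cell markers KLRF1 was at 185 CPM in the GZMB gate and 19.9 CPM below it, while NCAM1 had 6 UMIs in all. Doublets were not called, and the part of such cells in the HBA counts was not tested. T cell genes summed to 4182 CPM in cells with HBA and 3409 CPM in those without. CD28 and TRAT1 of this list went the other way. At equal depth CD28 had 17.0 CPM with HBA against 53.8 CPM without, and TRAT1 101 against 117 CPM.

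Genes co-detected with HBA were sought by comparing the 882 thinned cells with an HBA UMI in the full counts with the 6223 cells without. Of 6075 genes, 54 (0.889%) were at least 2-fold higher and 66 (1.09%) at least 2-fold lower, on the scale of log2(CPM + 10). The gate genes GZMB, CX3CR1 and CCR7 were kept in these counts, although HBA was chosen for its differences between cell states. Their differences restate those of the gates and are no further support. GZMB stood at 3689 CPM against 1106 CPM, a difference of 1.73 on this scale. CX3CR1 stood at 182 against 54.9 CPM, a difference of 1.57, and the unnamed ENSMMUG00000060382 at 281 against 83.2 CPM, a difference of 1.64. The genes of rank 1 and rank 3, ENSMMUG00000051042 and ENSMMUG00000042977, are also unnamed and rested on few cells. Of 206 raw UMIs of the former, 140 were in 1 cell, and 393 of 1325 UMIs of the latter. Named after their values were seen, TSPAN2, a tetraspanin, had 98.6 against 27.8 CPM, ADGRG1, the adhesion receptor GPR56, had 72.6 against 20.7 CPM and NKG7, a cytotoxic granule protein, had 2027 against 784 CPM.

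The 5 genes lower by the most in cells with HBA included markers of naive T cells, among them the gate gene CCR7. CD7, a T cell surface glycoprotein, had 53.3 CPM with HBA and 294 CPM without, a difference of -2.26. CCR7 had 24.9 against 151 CPM (-2.20), RCAN3, a calcineurin regulator, had 14.2 against 81.3 CPM (-1.92), and LEF1, a transcription factor of naive T cells, had 22.7 against 111 CPM (-1.89). SFRP5, a secreted Wnt antagonist, had 1.13 against 29.4 CPM (-1.82).

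Few genes differed by 2-fold within the GZMB gate. Between the 747 gated cells with HBA and the 1941 without, 1 of 4863 genes was at least 2-fold higher (0.0206%) and 3 were at least 2-fold lower (0.0617%). This comparison was chosen after the values over all cells were seen. GZMB itself was at 4335 against 3461 CPM, a log2 difference of 0.32, and CX3CR1 at 210 against 162 CPM, a difference of 0.35. CD7 was at 38.8 against 54.1 CPM (-0.39) and CCR7 at 15.4 against 18.8 CPM (-0.18). The gene past 2-fold was TRBV10-1, a T cell receptor beta segment, at 70.3 against 24.0 CPM (105 and 93 UMIs). Counted by cells, 13 of 64 gated cells with TRBV10-1 held HBA (20.3%, 11.3 to 32.2), which overlapped the 17.4% of the whole gate, and 1 cell with HBA held 35 raw TRBV10-1 UMIs. The 3 lower ones were TRBV10-3, with 3 and 78 UMIs, and ENSMMUG00000052981 and ENSMMUG00000053347, with 0 in cells with HBA and 68 and 53 in those without. ENSMMUG00000052981 is TRGV9, a gamma chain segment, in the gene name table. How many T cell clones carry these segments was not tested.

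**Figure D5:**
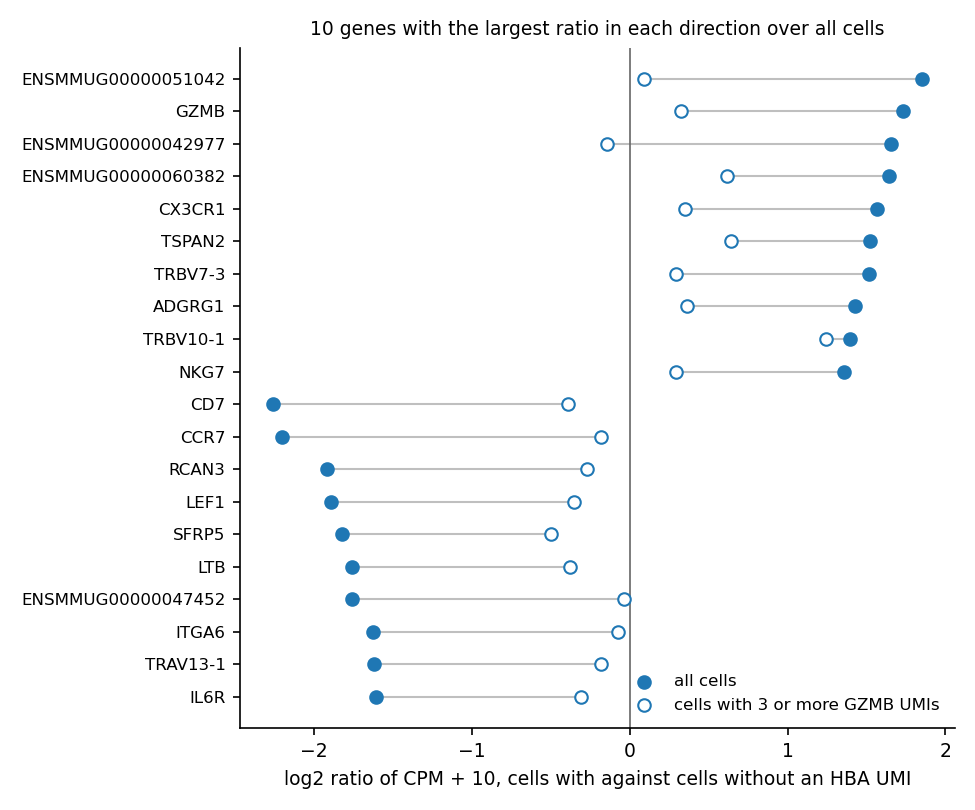
The 10 genes with the largest ratio in each direction between cells with and without an HBA UMI (x axis, log2 ratio of CPM + 10), in all cells (filled points) and in cells with 3 or more GZMB UMIs (open points). All filled points lie beyond 1.3 in size, while among the open points only TRBV10-1, at 1.24, lies beyond 1.

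HBA was found in cells of many receptor segments. Within the GZMB gate, 27 TRAV or TRBV segments were each found in at least 30 thinned cells, and all 27 had cells with HBA. With HBA in 17.4% of the gate, such cells were likely for any segment of that size, so this is no test of spread. The share ran from 2.86% for TRBV6-1 (0.0723 to 14.9, 1 of 35 cells) to 22.3% for TRAV21 (16.5 to 29.2, 40 of 179 cells), with a median of 16.3%. TRBV7-3 had 22.0% (17.0 to 27.5, 56 of 255 cells) and TRAV19 17.9% (14.7 to 21.6, 90 of 502 cells), both overlapping the share of the whole gate. TRBV7-2 had 4.76% (0.993 to 13.3, 3 of 63 cells). Its interval and that of TRBV6-1 lay below the interval of the whole gate (16.0 to 18.9). These segments were examined after their values were seen, and the number of clones behind each was not tested.

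The surface tags were compared between cells with and without HBA. Over all kept cells the median CD4 tag count was 322 UMIs (quartiles 249.75 and 443.25) with HBA and 389 (290 and 501) without. The median CD8 tag count was 376.5 UMIs (220.75 and 591.25) with HBA and 329 (182 and 562.25) without. Within the GZMB gate the CD4 medians came closer, at 312.5 and 315 UMIs, while the CD8 medians were 389 and 341 UMIs. Split into 4 equal parts by CD4 tag, the lowest part of the gate had 149 CPM of HBA (128 to 172) and the highest part 59.6 CPM (47.5 to 73.9), where the raw median depth was 2960 and 5168 UMIs. Across the 4 parts by CD8 tag the level lay between 104 and 116 CPM, with overlapping intervals.

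Over the 7 gates that share no cell, 383 of the 5380 genes with at least 500 UMIs had a Pearson r above 0.9 with HBA on the scale of log2(CPM + 10). The 5 most alike were TMEM160 (r = 0.994), AP1M1 (0.993), MYO1G (0.992), SNU13 (0.991) and MOB2 (0.991). GZMB itself had 0.977 and HBQ1 0.793. The 5 differed from HBA in the size of their range. TMEM160 ran from 104 to 182 CPM and MYO1G, a myosin of haematopoietic cells, from 146 to 492 CPM, whereas HBA ran from 2.48 to 121 CPM. These correlations describe 7 points from 1 library, in which the gates with GZMB lay at 1 end. HBB had too few UMIs for the same comparison.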

How the data were processed

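The authors deposited 1 matrix of UMI counts per feature and cell barcode, which Cell Ranger 3.1.0 produced by aligning reads to Mmul_10 (STAR 2.5.1b). No source used here names the annotation release. The same matrix holds the CD4 and CD8 tag counts. The members and gene lists were chosen with earlier results of these data known.

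Following the filters of the study, genes had to appear in 3 or more cells, and a cell needed 200 to 4000 genes with mitochondrial UMIs of no more than 20%. Mitochondrial features were 13 named genes and 2 unnamed features beside them. The cell with over 1000 HBA UMIs was dropped. Doublets were not called beyond the upper limit on genes. Each cell was thinned to 2000 UMIs (seed 1). Summed UMIs were divided by total UMIs (CPM) with exact Poisson intervals, shares have exact binomial (Clopper-Pearson) intervals, and ratios of 2 counts have exact conditional binomial intervals. For a count of 0 the limit was set at 3 counts. Ratios over all genes used a pseudocount of 10 CPM and at least 50 UMIs in the higher group. Genes were named by rule: the gate genes, the highest members of each list, the 5 largest ratios in each direction, and the 5 genes most like HBA. The code was tested on simulated data. Analysis used Python 3.11.15, numpy 2.4.6, scipy 1.17.1 and pandas 2.3.3. With 1 sample no test was made and cells were not treated as replicates.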

Additional observations from a re-analysis of the deposited data

Results flagged for a closer look

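The filters of the study removed 3 of the 4 globin-rich barcodes, which the comparisons do not use. Together they held 3764 HBA UMIs and 4000 HBB UMIs. The globin-rich barcodes were set apart by 100 or more HBA UMIs, so their high HBA sum follows from that choice.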

How the results depend on the processing

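Of 94 values recomputed under another setting, 63 stayed within the counting interval or 1.5 times the count of the value reported, and 31 moved. A change of sign, possible for the log2 ratios but not for shares or counts, was seen in 0. Thinning to 1000 UMIs, to 3000 UMIs or not at all gave HBA shares of 3.92%, 9.12% and 11.8%, and HBB shares of 0.178% at 3000 UMIs and 0.158% without thinning. For CX3CR1 the HBA log2 ratio was 2.42 at 3000 UMIs, 2.25 without thinning and 2.26 in bins of total UMIs. For CCR7 it was -3.32, -2.90 and -3.03 under the same settings. A gate at 10 or more GZMB UMIs gave 2.75. Over all barcodes, which brings back the one with 991 HBA UMIs, the ratios were 0.46 for GZMB, 0.62 for CX3CR1, 0.40 for MKI67 and -2.65 for EOMES. Without the 4 globin-rich barcodes they were 3.81, 2.21, 1.33 and -1.09, and -3.22 for CCR7. Leaving out cells with 3 or more HBA UMIs gave 0.82 for MKI67. Within the GZMB gate the ratios were 0.41 for CX3CR1, 0.85 for MKI67 and -2.50 for CCR7. The settings without the 4 barcodes and within the GZMB gate, and a second seed of the draw, were chosen after seeing the data. The second seed gave 3.84 for GZMB, 2.05 for CX3CR1, 1.38 for MKI67, -0.997 for EOMES and -3.42 for CCR7. Of the genes past 2-fold between cells with and without HBA, the count of 120 became 399 at a pseudocount of 1 CPM (104 higher, 295 lower) and 21 at 50 CPM (13 higher, 8 lower). It became 4 within the GZMB gate (1 higher, 3 lower), and without thinning 38 were lower. The cause was not tested where none is given.

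HBB ratios could not be given at equal depth, because 4 HBB UMIs remained after thinning. Counting error is the only error measured, and with 1 animal nothing can be said of other animals. Reads from the bases that HBA and HBA1 share cannot be told apart. No paired analysis was possible because the result comes from no test and there is 1 sample.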
